A study of Homo sapiens with 9 samples.

Results

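The genes described here are 45 genes of DNA double-strand break repair and of the Fanconi pathway, taken from a list of names and grouped by role. The groups hold 12 genes of strand exchange in homologous recombination, 7 of DNA end resection and joint processing, 12 of the Fanconi pathway, 7 damage kinases and mediators, 6 of end joining and the mismatch repair gene PMS2. Each of the 45 symbols matched 1 identifier in the count table of both cell lines, which share 52165 genes of the 57820 listed for Kyse150 and the 60683 listed for TE11. All 45 passed the filter on low counts in both lines.

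Kyse150 and TE11 are established lines of human esophageal squamous cell carcinoma. Lentivirus had brought either a control shRNA, shNC in the labels, or an shRNA against KDM2A into the cells, and polyadenylated RNA was sequenced. KDM2A is a histone H3 lysine 36 demethylase that binds unmethylated CG sites. The 9 libraries form 4 groups. Kyse150 gave 2 control and 2 knockdown libraries, and TE11 gave 3 controls and 2 that are labelled knockdown. No other gene change or drug is named for any group, and the labels do not say how many shRNA sequences or clones were used. They call the replicates independent without saying what was repeated, so p-values here reflect only how far these libraries vary, and that variation may be technical. Fragment counts assigned to genes ran from 6052883 to 7167055 per library in Kyse150 and from 8457767 to 12073098 in TE11.

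KDM2A stood at 172 and 174.7 CPM in the Kyse150 controls and at 107 and 104 in the knockdowns, where CPM is a gene's counts scaled to library size within a table. It fell to 0.611 of control in Kyse150 (log2 fold change -0.71, SE 0.07; edgeR adjusted p = 3.87e-09). The TE11 controls held 120, 116 and 120 CPM and the libraries labelled knockdown 126 and 139.5. In TE11 the target gene was therefore not reduced under the knockdown label (log2 fold change 0.16; edgeR adjusted p = 0.0335), a small difference that no longer passed when TE11 control replicate 2 (0.13, edgeR adjusted p = 0.0772), TE11 control replicate 3 (0.15, edgeR adjusted p = 0.0969) or labelled knockdown replicate 2 (0.10, edgeR adjusted p = 0.398) was left out, nor with DESeq2 (adjusted p = 0.0739), the replicate block or no filter (edgeR adjusted p = 0.0838 and 0.0546). Every TE11 direction below is between libraries as labelled, all TE11 comparisons rest on these libraries, and the Kyse150 values do not use them. Of 10 squamous epithelium markers, 9 or 10 had counts in each group, with a summed level of 2179 to 2186 CPM in Kyse150 controls, 1982 to 1986 in knockdowns, 4059 to 4357 in TE11 controls and 2038 to 2085 in the libraries labelled TE11 knockdown. In TE11, edgeR called 9 of the 10 lower and 0 higher, at a median log2 fold change of -1.45. It called 42.2% of all genes tested lower there. Of 8 squamous markers tested in Kyse150, 3 rose and 3 fell. Of 6 leukocyte markers, 2 to 4 had counts in each group, and their sum ran from 0.752 to 1.94 CPM over all libraries. Summed fibroblast and endothelial markers were low in Kyse150, at 6.23 to 6.70 and 1.42 to 2.91 CPM in the controls and 10.8 to 11.3 and 1.79 to 2.26 in the knockdowns. In TE11 the fibroblast sum went from 17.3 to 20.7 CPM in the controls to 2.68 to 3.78 in the libraries labelled knockdown, and the endothelial sum from 7.07 to 9.27 to 1.05 to 1.78. Of these markers, 2 of 2 and 3 of 3 tested were lower there with edgeR, and their part in the TE11 results was not tested. In bulk RNA of this kind, fewer cells in a given state and less RNA per cell cannot be told apart.

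A double-strand break is repaired either by joining its ends, which the Ku proteins XRCC5 and XRCC6, the kinase PRKDC and the ligase LIG4 carry out, or by homologous recombination with the sister chromatid as template. For recombination, RBBP8 and the MRE11-RAD50-NBN complex trim the ends to single strands, and BRCA1, PALB2 and BRCA2 then prepare them for strand exchange. The Fanconi pathway unhooks crosslinks between DNA strands: a core complex with the ligase FANCL and the conjugating enzyme UBE2T attaches ubiquitin to FANCD2 and FANCI. ATM and ATR are the kinases that signal breaks and stalled forks to CHEK2 and CHEK1. Many of these genes are transcribed mainly in S and G2 phase, when a sister chromatid is present.

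RefSeq start-site windows on GRCh38.p14, from 250 bases before to 50 after a start, were matched for 39 of the 45 genes. They are shown for FANCC and BRCA2, called in opposite directions in the lines, for RIF1, likewise, and for XRCC6, lower in both lines. Capitals mark the letters searched on either strand: TTTCCCGC or TTTGGCGC, which E2F factors are known to bind, CCAAT, and TTTGAA, the cell cycle homology region. The windows lie at chr9:95317660-95317959 (minus strand), chr13:32315258-32315557 (plus), chr2:151409652-151409951 (plus) and chr22:41621045-41621344 (plus).
FANCC: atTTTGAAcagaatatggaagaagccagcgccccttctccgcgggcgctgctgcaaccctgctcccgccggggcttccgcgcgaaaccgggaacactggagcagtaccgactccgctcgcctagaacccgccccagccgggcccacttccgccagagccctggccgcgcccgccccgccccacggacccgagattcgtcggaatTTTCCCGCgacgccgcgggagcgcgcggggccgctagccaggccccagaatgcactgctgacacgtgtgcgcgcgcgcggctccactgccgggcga
BRCA2: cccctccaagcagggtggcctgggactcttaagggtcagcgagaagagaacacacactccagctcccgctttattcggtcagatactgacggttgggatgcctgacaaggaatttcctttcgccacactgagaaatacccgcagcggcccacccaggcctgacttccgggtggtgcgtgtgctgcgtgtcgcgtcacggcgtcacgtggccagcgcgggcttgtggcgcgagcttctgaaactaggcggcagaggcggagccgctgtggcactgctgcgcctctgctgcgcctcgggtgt
RIF1: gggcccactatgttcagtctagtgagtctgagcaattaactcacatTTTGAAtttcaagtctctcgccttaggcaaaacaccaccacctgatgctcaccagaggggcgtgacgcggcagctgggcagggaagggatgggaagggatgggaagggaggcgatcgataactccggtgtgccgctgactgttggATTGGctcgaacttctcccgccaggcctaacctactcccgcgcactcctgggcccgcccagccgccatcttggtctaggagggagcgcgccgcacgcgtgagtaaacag
XRCC6: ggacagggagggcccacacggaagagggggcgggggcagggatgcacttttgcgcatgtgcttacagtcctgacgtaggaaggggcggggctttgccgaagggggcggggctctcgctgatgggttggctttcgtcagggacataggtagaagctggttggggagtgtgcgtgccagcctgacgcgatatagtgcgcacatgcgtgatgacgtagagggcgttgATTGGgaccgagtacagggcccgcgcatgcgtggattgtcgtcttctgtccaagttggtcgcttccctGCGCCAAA
The FANCC window shown held an E2F-like match and TTTGAA, XRCC6 an E2F-like match and CCAAT, RIF1 CCAAT and TTTGAA, and BRCA2 none of these letters. Another FANCC window, at chr9:95317205-95317504 (minus strand), held none of them either. A gene with several windows was counted if any of them held a match. E2F-like letters were found for 4 of 39 genes, FANCC, FANCD2, XRCC2 and XRCC6, against 3.70% of the 15843 protein-coding genes with windows. CCAAT was found for 22 of 39, against 42.1%, and TTTGAA for 7 of 39, against 15.8%. No matches to different motifs overlapped. The windows of these genes held a median of 24 CG dinucleotides, ranging from 2 to 41, against a median of 21 over all windows.

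In Kyse150, 23 of the 45 genes fell and 1 rose with the knockdown, while 23.3% of the 14060 genes tested fell and 24.8% rose (edgeR quasi-likelihood test, adjusted p under 0.05; 48.2% called in all). The median log2 fold change of the 45 genes was -0.32, with a range of -1.28 to 0.47, against 0.00 over all genes tested. In 36 of the 45 the estimate lay below 0, and 2 genes, BRCA2 and LIG4, stood at or below 0.5 of control. The shares of all Kyse150 genes below 0 or past that cutoff were not counted. DESeq2 called 13 lower and 0 higher among the 45, where it called 15.5% of all genes lower and 15.3% higher. The 10 genes lower with edgeR alone were BRCA1, BARD1, RAD51C, XRCC3, RAD50, FANCF, CHEK1, TP53BP1, POLQ and XRCC4, and the rise of CHEK2 was lost too. Their Kyse150 calls below rest on edgeR. Leaving out Kyse150 control replicate 1 or knockdown replicate 1 gave 14 and 13 lower and 0 higher, beside 18.8% and 18.3% of all genes lower and 19.8% and 19.1% higher. Of all assigned counts, the 45 genes took 0.372% and 0.355% in the control libraries of Kyse150, against 0.318% and 0.332% in its knockdowns.

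In TE11 the split went the other way: 22 of the 45 were higher and 13 lower in the libraries labelled knockdown, where 35.9% of the 16453 genes tested were higher and 42.2% lower (78.1% called by edgeR in all). Their median log2 fold change was 0.27, with a range of -1.47 to 1.27, against -0.09 over all genes. Here 7 genes stood at 2-fold or more and 3 at 0.5 of control or less. The share of all TE11 genes past these cutoffs was not counted, so the 2 counts only describe the list. DESeq2 called 20 of the 45 higher and 11 lower in TE11, and its share over all TE11 genes is not given here. With edgeR alone, RAD54B and FANCG were higher and RAD54L and ATR lower. The share of assigned counts was 0.362%, 0.381% and 0.383% in the TE11 controls and 0.397% and 0.401% in the libraries labelled knockdown.

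**Figure D1:**
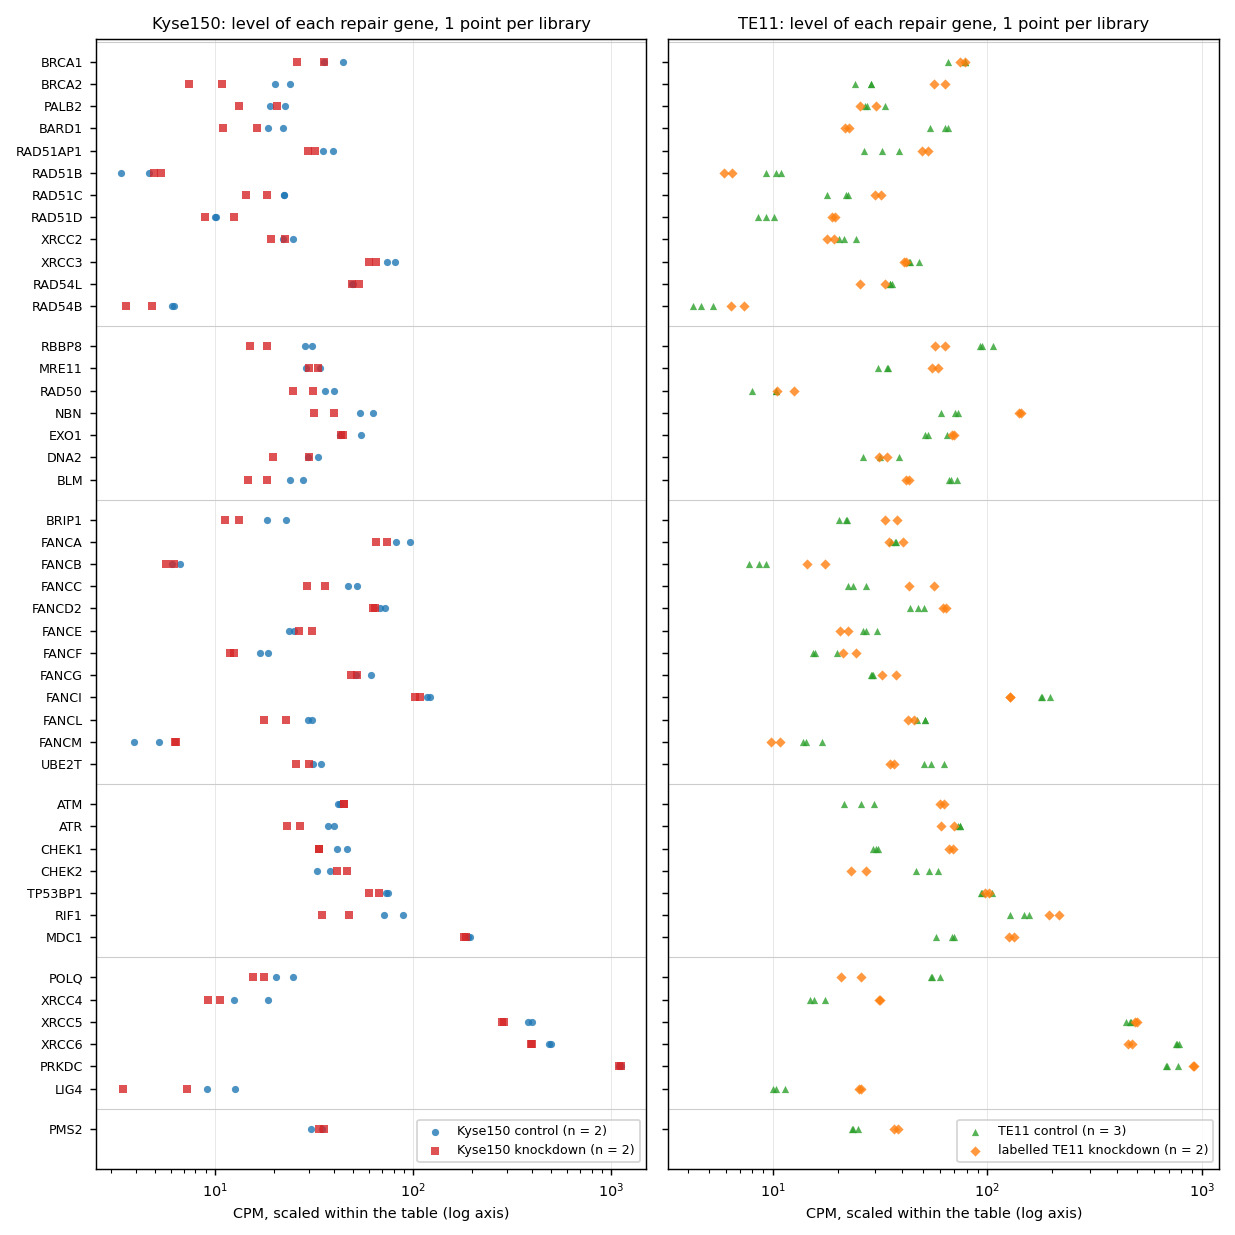
Level of each of the 45 repair genes in every library, in CPM on a log axis, with Kyse150 on the left and TE11 on the right; each point is 1 library. Blue circles and red squares are Kyse150 controls and knockdowns, green triangles and orange diamonds TE11 controls and libraries labelled knockdown. BRCA2 lies at 20.2 to 24.1 CPM in the Kyse150 controls and at 7.45 to 10.8 in the knockdowns.

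Among the 12 strand exchange genes, 5 fell in Kyse150 and 0 rose, at a median log2 fold change of -0.31, while DESeq2 called 1 lower, BRCA2. Over all genes tested, edgeR called 23.3% lower and 24.8% higher in Kyse150, and 35.9% higher and 42.2% lower in TE11. DESeq2 called 15.5% of all genes lower and 15.3% higher in Kyse150. The counts of each list below stand beside these same shares. BRCA2 (chr13:32315474-32400266 on GRCh38 by GENCODE release 29, plus strand), which acts on single-stranded DNA before strand exchange, stood at 24.1 and 20.2 CPM in the controls and at 7.45 and 10.8 in the knockdowns. It fell to 0.411 of control (log2 SE 0.19; edgeR adjusted p = 3.16e-06), the largest fall of the 45. In TE11 it stood at 24.1, 28.7 and 28.5 CPM in the controls and 56.2 and 63.4 in the libraries labelled knockdown, 2.21-fold higher (log2 SE 0.10; edgeR adjusted p = 1.65e-14). The groups did not overlap in either line, and the control levels of the 2 lines were close. BRCA1, the ubiquitin ligase that BRCA2 acts with through PALB2, stood at 44.2 and 35.7 CPM in the control libraries of Kyse150, against 26.1 and 35.4 under the knockdown, so that the groups nearly met. It was at 0.767 of control (edgeR adjusted p = 0.022; with DESeq2, adjusted p = 0.127) and did not pass in TE11, at 65.3, 78.2 and 78.7 CPM against 78.6 and 74.4. PALB2, the bridge between them, passed in neither line (log2 fold change -0.30 and -0.07).

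BARD1 (chr2:214725646-214809711, minus strand), the ring-finger partner that BRCA1 needs for stability, was lower in both lines. In TE11 it stood at 53.9, 65.8 and 63.7 CPM in the controls and at 22.6 and 21.7 in the libraries labelled knockdown, or 0.362 of control (log2 SE 0.10; edgeR adjusted p = 3.79e-17). In Kyse150 the controls held 22.2 and 18.5 CPM and the knockdowns 11.03 and 16.3, with no overlap but a gap smaller than the spread of the knockdowns. It stood at 0.668 of control (edgeR adjusted p = 0.0102), a call that was lost without control replicate 1 (log2 -0.45, edgeR adjusted p = 0.0965) or knockdown replicate 1 (-0.32, 0.227), and with DESeq2 (adjusted p = 0.0857).

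RAD51B, RAD51C, RAD51D and XRCC2, which form a complex that assists strand exchange, did not move as a block. RAD51C (chr17:58692573-58735611, plus strand) held 22.4 CPM in both control libraries of Kyse150, against 14.3 and 18.3 under the knockdown, or 0.725 of control (edgeR adjusted p = 0.0198). Its call was lost without control replicate 1 (log2 -0.47, edgeR adjusted p = 0.0544), without control replicate 2 (-0.47, 0.0509), without knockdown replicate 1 (-0.30, 0.253), and with DESeq2 (adjusted p = 0.13). In TE11 it stood at 21.9, 22.4 and 17.9 CPM against 31.9 and 30.0, 1.49-fold higher without overlap (log2 SE 0.12; edgeR adjusted p = 2.26e-05). RAD51D, its partner in the BCDX2 complex with RAD51B and XRCC2, had 10.05 and 10.2 CPM in the Kyse150 controls, against 8.94 and 12.4 in the knockdowns, so that the knockdowns lay on both sides of the controls. In TE11 RAD51D was 2.06-fold higher, at 9.30, 10.1 and 8.52 CPM against 19.6 and 18.8 (log2 SE 0.14; edgeR adjusted p = 1.08e-08). RAD51B was lower in the same libraries, at 9.30, 10.9 and 10.3 CPM against 6.40 and 5.90, or 0.605 of control (edgeR adjusted p = 0.000459), and XRCC2 passed in neither line. RAD51D and RAD51B thus differed in direction in TE11.

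XRCC3, the RAD51C partner in the CX3 complex, stood at 74.5 and 81.0 CPM in the controls of Kyse150, against 65.1 and 60 under the knockdown (0.806 of control; edgeR adjusted p = 0.0061). The call was lost without control replicate 2 (log2 -0.26, edgeR adjusted p = 0.0642) or knockdown replicate 2 (-0.26, 0.0571), and with DESeq2 (adjusted p = 0.05). In GENCODE, 76.7% of XRCC3 exon bases lie on exons of KLC1 on the opposite strand, and whether reads were counted by strand is unknown here, so its counts are uncertain. Of the other strand exchange genes, RAD51AP1 and RAD54B were higher in TE11, RAD54L was lower there, and none of the 3 passed in Kyse150. With DESeq2 the TE11 calls for RAD54B and RAD54L were lost (adjusted p = 0.0883 and 0.0664). RAD54L and RAD54B, the motor proteins of strand invasion, share 25.1% and 59.1% of their exon bases with other genes and are uncertain too.

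Of the 7 genes of end resection and joint processing, 4 fell in Kyse150 and 0 rose, at a median of -0.45, whereas 3 were higher and 2 lower in TE11. The MRE11-RAD50-NBN complex, the first sensor of broken ends, did not change evenly. NBN (chr8:89933336-90003228, minus strand), which recruits ATM to the complex, fell from 62.9 and 54.1 to 31.9 and 40.1 CPM in Kyse150, 0.614 of control (log2 SE 0.12; edgeR adjusted p = 1.36e-05). In TE11 it rose from 60.6, 70.5 and 73.3 CPM to 143 and 139.7 in the libraries labelled knockdown, 2.07-fold (log2 SE 0.08; edgeR adjusted p = 8.50e-17). Neither line showed overlap between its groups. MRE11, the nuclease, held 28.9 and 34.1 CPM in Kyse150 controls and 29.8 and 33.3 in knockdowns, a log2 fold change of 0.00 (SE 0.13) with overlapping groups. It was 1.73-fold higher in TE11, at 30.9, 34.2 and 33.9 CPM against 59.0 and 55.3 (log2 SE 0.09; edgeR adjusted p = 1.40e-10).

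RAD50, the ATPase that tethers ends, fell to 0.734 of control in Kyse150 and did not pass in TE11 (edgeR adjusted p = 0.00593 and 0.133), and with DESeq2 it passed in neither line (adjusted p = 0.0582 and 0.29). Its level depended on the table: 24.7 to 40.1 CPM in the Kyse150 libraries and 7.97 to 12.5 in all 5 TE11 libraries. By GENCODE release 29, 79.7% of RAD50 exon bases are shared with the overlapping genes AC116366.3 and TH2LCRR, and the tables were made with different annotations, so its levels cannot be compared between them.

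RBBP8 (chr18:22798261-23026488, plus strand), also called CtIP, which starts resection together with MRE11, was lower in both lines. It fell from 30.9 and 28.7 to 15.1 and 18.4 CPM in Kyse150, 0.561 of control (log2 SE 0.15; edgeR adjusted p = 4.80e-05). In TE11 it stood at 92.3, 105.6 and 93.9 CPM in controls and 56.8 and 63.6 in the libraries labelled knockdown, 0.619 of control (log2 SE 0.08; edgeR adjusted p = 3.47e-10). BLM, the helicase that dissolves crossed strands, followed the same course. It fell from 27.8 and 23.9 to 18.3 and 14.7 CPM in Kyse150 (0.642 of control; edgeR adjusted p = 0.00157) and stood at 67.8, 72.3 and 66.01 against 43.2 and 41.6 in TE11 (0.617; edgeR adjusted p = 9.98e-10). For RBBP8 and BLM the groups did not overlap in either line, and the 2 responses were not shown to differ (difference 0.17, SE 0.16, and -0.03, SE 0.17; edgeR adjusted p = 0.375 and 0.912). EXO1, the long-range resection nuclease, was 1.23-fold higher in TE11, and DNA2, which acts beside it, passed in neither line.

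**Figure D2:**
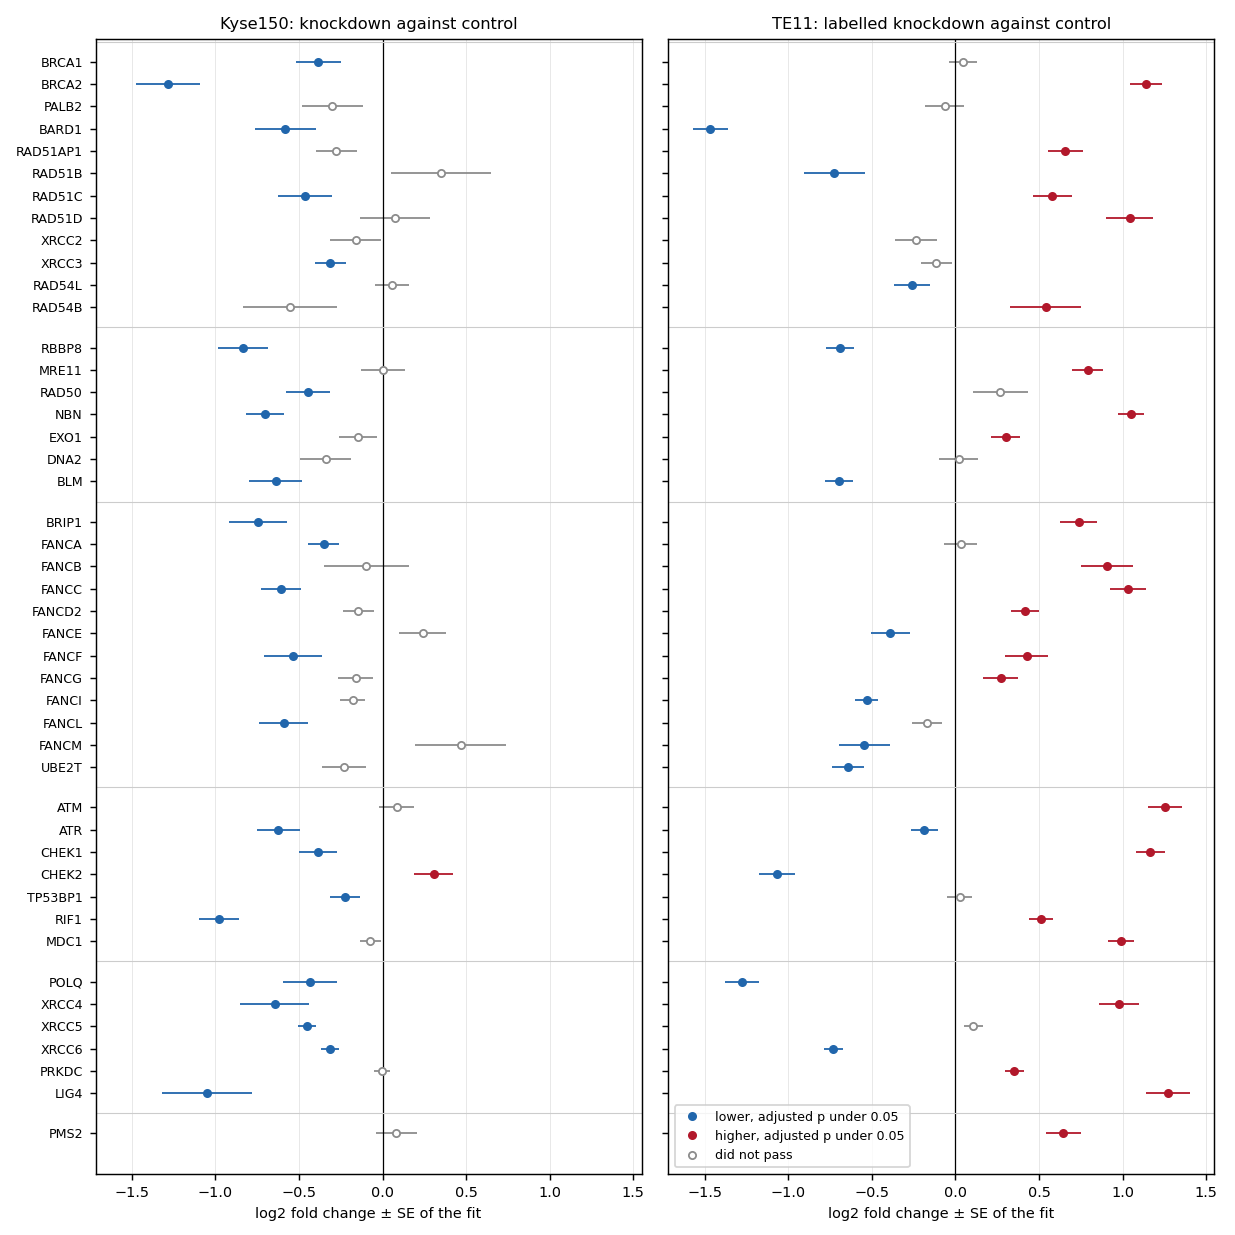
Log2 fold change of each of the 45 genes with the standard error of the edgeR fit, Kyse150 knockdown against control on the left and labelled TE11 knockdown against control on the right. Filled blue points are lower and filled red points higher at an adjusted p under 0.05, and open points did not pass; 23 points are blue and 1 is red in Kyse150, 13 are blue and 22 red in TE11.

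Of the 12 Fanconi genes, 5 fell in Kyse150 and 0 rose (median -0.21), and 6 were higher and 4 lower in TE11 (median 0.15). In TE11 edgeR called 78.1% of all genes tested in either direction. The core complex, which carries FANCL to the crosslink, was divided. FANCC (chr9:95099054-95426796, minus strand) fell from 52.2 and 47.2 to 29.2 and 36.2 CPM in Kyse150, 0.656 of control (log2 SE 0.12; edgeR adjusted p = 0.000108). In TE11 it stood at 22.3, 27.1 and 23.6 CPM in controls and 56.6 and 43.2 in the libraries labelled knockdown, 2.05-fold higher (log2 SE 0.11; edgeR adjusted p = 1.19e-11). The groups stayed apart in both lines. FANCF, an adaptor of the core complex, stood at 16.9 and 18.5 CPM against 11.9 and 12.4 in Kyse150 (0.690 of control; edgeR adjusted p = 0.0127) and at 15.8, 19.9 and 15.3 against 21.3 and 24.3 in TE11 (1.34-fold; edgeR adjusted p = 0.00338). Its Kyse150 call was lost without control replicate 2 (log2 -0.47, edgeR adjusted p = 0.0824) or knockdown replicate 1 (-0.51, 0.0627), and with DESeq2 (adjusted p = 0.112), and its TE11 call without labelled knockdown replicate 2 (0.34, 0.0714).

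FANCB and FANCG, further core subunits, were 1.87-fold and 1.21-fold higher in TE11 and did not pass in Kyse150. The TE11 call for FANCG was lost with DESeq2 (adjusted p = 0.0637). FANCA fell to 0.783 of control in Kyse150 and did not pass in TE11, with 23.6% of its exon bases on exons of ZNF276. FANCE and FANCM were lower in TE11, at 0.764 and 0.686 of control, and their Kyse150 estimates lay above 0 without passing (log2 0.24 and 0.47). FANCM, the translocase that anchors the complex to DNA, rests on 27 to 43 counts per Kyse150 library.

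FANCL (chr2:58159243-58241372, minus strand), the catalytic ligase, stood at 31.1 and 29.7 CPM in Kyse150 controls and 17.7 and 22.8 in knockdowns, 0.664 of control (log2 SE 0.15; edgeR adjusted p = 0.0015). Without knockdown replicate 1 this call was lost (log2 -0.42, edgeR adjusted p = 0.0567). In TE11 it held 47.1, 51.1 and 50.9 CPM against 45.6 and 42.7 and did not pass (0.889 of control; edgeR adjusted p = 0.0768), though it did without control replicate 1 (log2 -0.21, edgeR adjusted p = 0.018). UBE2T, the E2 enzyme that works with FANCL, was lower in TE11 at 50.8, 62.8 and 54.8 CPM against 35.3 and 36.6 (0.640 of control, log2 SE 0.10; edgeR adjusted p = 7.15e-08), and its Kyse150 values of 31.3 and 34.2 against 25.8 and 30.1 CPM did not pass (edgeR adjusted p = 0.146). The gap between UBE2T groups was clear in TE11 and small in Kyse150.

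FANCI and FANCD2, the pair that receives the ubiquitin, differed in direction in TE11. FANCI (chr15:89243949-89317261, plus strand) stood at 177, 195 and 180 CPM in TE11 controls and 128 and 127 in the libraries labelled knockdown, 0.692 of control (log2 SE 0.07; edgeR adjusted p = 2.92e-09). FANCD2 was 1.33-fold higher in the same libraries (log2 SE 0.09; edgeR adjusted p = 2.78e-05). In Kyse150 FANCI held 122 and 117 CPM against 102 and 109, just outside the threshold (0.884 of control; edgeR adjusted p = 0.0525), and it passed without knockdown replicate 2 (log2 -0.23, edgeR adjusted p = 0.049), with RLE scaling (0.0469), without a filter (0.0489) and with the stricter filter (0.0462). BRIP1 (chr17:61681266-61863521, minus strand), the helicase that binds BRCA1 and is also FANCJ, changed in both lines. It fell from 22.9 and 18.4 to 13.3 and 11.3 CPM in Kyse150 (0.596 of control, log2 SE 0.18; edgeR adjusted p = 0.000971) and rose from 20.2, 22.1 and 21.8 to 33.2 and 38.0 in TE11 (1.67-fold, log2 SE 0.11; edgeR adjusted p = 8.50e-08). BRIP1 and BRCA2 shared this course, and neither had overlapping groups.

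Of the 7 damage kinases and mediators, 4 fell and 1 rose in Kyse150 (median -0.22), and 4 were higher and 2 lower in TE11 (median 0.51). DESeq2 called 2 lower, ATR and RIF1, and 0 higher in Kyse150. In TE11 it called 4 higher, ATM, CHEK1, RIF1 and MDC1, and 1 lower, CHEK2. The checkpoint kinases CHEK1 and CHEK2 were called in opposite directions within each line. CHEK1 (chr11:125625136-125676255, plus strand), the ATR effector, fell from 46.6 and 41.2 to 33.7 and 33.6 CPM in Kyse150 (0.766 of control; edgeR adjusted p = 0.00661), a call lost without control replicate 1 (log2 -0.30, edgeR adjusted p = 0.101) and with DESeq2 (adjusted p = 0.0676). In TE11 it was 2.24-fold higher, at 31.0, 29.2 and 30.2 CPM against 68.9 and 66.3 (log2 SE 0.09; edgeR adjusted p = 3.67e-16). CHEK2 (chr22:28687743-28742422, minus strand), the ATM effector, was at 32.99 and 38.0 CPM in Kyse150 controls and 46.4 and 41.2 in knockdowns, 1.24-fold higher (edgeR adjusted p = 0.0304), the single rise among the 45. That rise was lost without control replicate 1 (log2 0.20, edgeR adjusted p = 0.271) or knockdown replicate 1 (0.21, 0.265), and with DESeq2 (adjusted p = 0.19). In TE11 CHEK2 was at 46.2, 59.1 and 53.1 CPM in controls and 23.2 and 27.1 in the libraries labelled knockdown, 0.477 of control (log2 SE 0.11; edgeR adjusted p = 2.73e-12). GENCODE lists 4 pseudogenes named after CHEK2, which can take part of its reads.

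The upstream kinases are ATM and ATR. ATM (chr11:108222484-108369102, plus strand) held 41.8 and 42.8 CPM in Kyse150 controls and 44.7 and 44.96 in knockdowns and did not pass (edgeR adjusted p = 0.538). It was 2.38-fold higher in TE11, at 21.5, 25.8 and 29.6 CPM against 62.5 and 59.9 (log2 SE 0.10; edgeR adjusted p = 3.47e-15). ATR (chr3:142449235-142578826, minus strand) fell from 40.1 and 37.3 to 27.0 and 23.1 CPM in Kyse150, 0.649 of control without overlap (log2 SE 0.13; edgeR adjusted p = 0.000211). In TE11 it held 74.6, 73.0 and 74.5 CPM against 60.5 and 69.5, 0.879 of control (edgeR adjusted p = 0.0347). This TE11 call was lost without control replicate 3 (log2 -0.20, edgeR adjusted p = 0.0605), without labelled knockdown replicate 1 (-0.08, 0.51) and with DESeq2 (adjusted p = 0.0592), and also with total-count scaling, without a filter, with the replicate block, in the fit of all libraries and with GC offsets (edgeR adjusted p = 0.0746, 0.0527, 0.0797, 0.056 and 0.162).

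Among the mediators that gather on chromatin around a break, RIF1 (chr2:151409883-151508013, plus strand), which acts with TP53BP1 to restrain resection, fell most in Kyse150. It stood at 89.5 and 71.4 CPM in controls and 34.7 and 47.4 in knockdowns, 0.508 of control (log2 SE 0.12; edgeR adjusted p = 1.63e-07). In TE11 it was 1.42-fold higher, at 127, 148 and 156 CPM against 195 and 215 (log2 SE 0.07; edgeR adjusted p = 2.21e-08). The RIF1 groups did not overlap in either line. TP53BP1 itself was at 0.856 of control in Kyse150, which passed with edgeR (adjusted p = 0.0451) and not with DESeq2 (adjusted p = 0.183), and did not pass in TE11, with 28.7% of its exon bases shared with TUBGCP4. MDC1, the scaffold that binds phosphorylated H2AX, held 189.7 and 194 CPM against 181 and 185 in Kyse150 and did not pass (edgeR adjusted p = 0.371). It was 1.99-fold higher in TE11, at 68.3, 57.2 and 70.0 CPM against 126 and 133 (log2 SE 0.08; edgeR adjusted p = 1.72e-15).

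Of the 6 end joining genes, 5 fell in Kyse150 and 0 rose (median -0.44), and 3 were higher and 2 lower in TE11 (median 0.23). DESeq2 and the fit with GC offsets each called 3 lower in Kyse150, XRCC5, XRCC6 and LIG4. The Ku subunits XRCC5 and XRCC6 form an obligate pair that threads onto DNA ends. XRCC5 (Ku80; chr2:216107464-216206303, plus strand) fell from 398 and 383 to 289 and 281 CPM in Kyse150 (0.731 of control, log2 SE 0.06; edgeR adjusted p = 2.25e-07), and XRCC6 (Ku70; chr22:41621119-41664048, plus strand) from 489 and 498 to 398 and 396 (0.803, log2 SE 0.05; edgeR adjusted p = 1.95e-05). In TE11 XRCC6 stood at 782, 769 and 759.7 CPM in controls and 453 and 474 in the libraries labelled knockdown, 0.602 of control (log2 SE 0.06; edgeR adjusted p = 9.10e-16). XRCC5 did not move with it there: it held 465, 469.8 and 442 CPM against 487 and 499.8 (1.08-fold; edgeR adjusted p = 0.0894), and passed without TE11 control replicate 1 (log2 0.11, edgeR adjusted p = 0.0254), with total-count scaling (0.027) and in the fit of all libraries (0.0356). GENCODE lists 5 pseudogenes named after XRCC6. PRKDC, the catalytic kinase that Ku recruits, was between 1095 and 1129 CPM in all Kyse150 libraries and 1.28-fold higher in TE11.

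XRCC4 and LIG4, the scaffold and ligase of the final step, were lower in Kyse150 and higher in TE11. LIG4 (chr13:108207439-108218368, minus strand) held 12.7 and 9.18 CPM in Kyse150 controls and 3.43 and 7.28 in knockdowns, 0.483 of control on 23 to 90 counts per library (log2 SE 0.27; edgeR adjusted p = 0.00222). Without knockdown replicate 1 the fall was 0.60 on the log2 scale in place of 1.05 and did not pass (log2 -0.60, edgeR adjusted p = 0.0777). In TE11 LIG4 stood at 10.3, 11.3 and 9.94 CPM against 25.1 and 25.6, 2.41-fold higher (log2 SE 0.13; edgeR adjusted p = 7.59e-12). XRCC4 (chr5:83077498-83353787, plus strand) stood at 18.6 and 12.5 CPM against 9.24 and 10.7 in Kyse150 (0.639 of control; edgeR adjusted p = 0.0105). Its call was lost without control replicate 1 (log2 -0.34, edgeR adjusted p = 0.299) or knockdown replicate 1 (-0.55, 0.0566), and with DESeq2 (adjusted p = 0.0948). In TE11 XRCC4 was 1.97-fold higher, at 14.8, 17.5 and 15.5 CPM against 31.5 and 31.0 (log2 SE 0.12; edgeR adjusted p = 6.47e-10).

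POLQ (chr3:121431427-121546641, minus strand), the polymerase of microhomology-mediated joining, which acts when recombination fails, was lower in both lines. In TE11 it stood at 54.4, 55.1 and 60.2 CPM in controls and 20.8 and 25.8 in the libraries labelled knockdown, 0.413 of control (log2 SE 0.10; edgeR adjusted p = 3.15e-15). In Kyse150 it held 24.8 and 20.4 CPM against 15.7 and 17.8 (0.739 of control; edgeR adjusted p = 0.027), a call lost without control replicate 1 (log2 -0.29, edgeR adjusted p = 0.266) or knockdown replicate 1 (-0.35, 0.172), with total-count scaling (edgeR adjusted p = 0.0574) and with DESeq2 (adjusted p = 0.156). PMS2 (chr7:5973239-6009125, minus strand), the endonuclease that cuts the strand with a mismatch, held 30.6 and 35.0 CPM against 35.5 and 33.8 in Kyse150, with overlap (edgeR adjusted p = 0.614). It was 1.56-fold higher in TE11, at 24.9, 23.5 and 23.4 CPM against 38.1 and 36.7 (log2 SE 0.10; edgeR adjusted p = 4.82e-07). The 11 pseudogenes named after PMS2 make its counts uncertain.

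The 2 responses were then set against each other in 1 fit of all 9 libraries. The TE11 response exceeded the Kyse150 response for 29 of the 45 genes and fell short of it for 9, where 33.8% and 33.1% of the 15895 genes in that fit did so (66.9% called by edgeR in all). The median difference was 0.46 (log2), against -0.06 over all genes. By pathway, the TE11 response was the higher one for 6 of 12 strand exchange, 4 of 7 resection, 8 of 12 Fanconi, 6 of 7 kinase and mediator and 4 of 6 end joining genes, and the lower one for 2, 0, 4, 1 and 2 of them. The difference was 2.45 for BRCA2 (SE 0.20; edgeR adjusted p = 1.36e-16), 2.35 for LIG4 (SE 0.28; edgeR adjusted p = 1.27e-10) and -1.35 for CHEK2 (SE 0.16; edgeR adjusted p = 1.11e-10). Among the 45, 10 genes fell in Kyse150 and were higher in TE11: BRCA2, RAD51C, NBN, BRIP1, FANCC, FANCF, CHEK1, RIF1, XRCC4 and LIG4. They are 22.2% of the 45, and 15.2% of the 13276 genes tested in both lines had this pair of edgeR calls. CHEK2 alone had the reverse pair, against 13.7% of all genes. A further 6, BARD1, RBBP8, BLM, ATR, POLQ and XRCC6, were lower in both lines (13.3% of the 45, 4.69% of all genes), and 0 were higher in both (6.47% of all genes). With DESeq2 in both lines the first set was 6 genes, BRCA2, NBN, BRIP1, FANCC, RIF1 and LIG4 (13.3%, against 10.5% of all genes), and the genes lower in both were RBBP8, BLM and XRCC6 (6.67%, against 2.79%). DESeq2 gave 0 of the 45 a call of higher in Kyse150 and lower in TE11, or of higher in both, where 8.58% and 3.72% of all genes had them. For PALB2, XRCC2 and DNA2 neither line passed. Across the 45 genes the 2 log2 fold changes had a Pearson r of -0.24 and a Spearman rho of -0.18. This is a description over genes, which share libraries and are not independent.

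**Figure D3:**
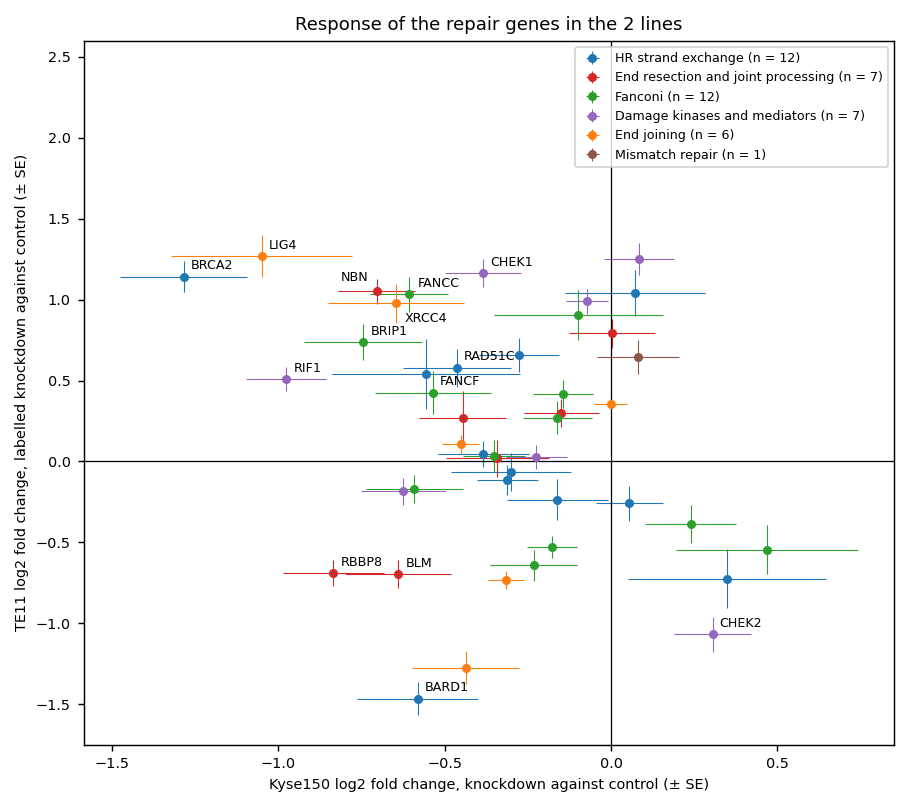
Kyse150 log2 fold change (x axis) against TE11 log2 fold change (y axis) of the 45 genes, with the standard errors of the fits and 1 colour per pathway group. Named points are genes called in opposite directions, or in the same direction with changes over 0.58 in both lines. The 10 genes lower in Kyse150 and higher in TE11 lie at the upper left, and CHEK2 at the lower right.

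Genes whose products work as partners can be compared within a library by the ratio of their counts, which library scaling does not alter. The pairs were chosen with these results known, so the ratios are given without a test. BARD1 per BRCA1 was 0.809 to 0.842 in the TE11 controls and 0.287 and 0.291 in the libraries labelled knockdown, and 0.503 and 0.518 against 0.423 and 0.461 in Kyse150. XRCC6 per XRCC5 was 1.64 to 1.72 in the TE11 controls and 0.93 and 0.949 in the libraries labelled knockdown, but 1.23 and 1.30 against 1.37 and 1.41 in Kyse150. The Ku ratio thus moved down in one line and up in the other. FANCI per FANCD2 went from 3.56 to 4.12 in TE11 controls to 2.06 and 1.99, near the 1.63 to 1.72 of all 4 Kyse150 libraries. NBN per MRE11 was 2.18 and 1.59 in Kyse150 controls and 1.07 and 1.20 in knockdowns, and 1.96 to 2.16 against 2.42 and 2.53 in TE11. CHEK2 per CHEK1 was 0.708 and 0.922 against 1.38 and 1.23 in Kyse150, and 1.49 to 2.03 against 0.336 and 0.409 in TE11. In each of these 5 pairs, the labelled groups of a line did not overlap, save for FANCI per FANCD2 in Kyse150, where 1.69 and 1.72 met 1.63 and 1.70. How often other pairs of genes keep the groups apart was not counted. In TE11 edgeR called 78.1% of all genes tested, so the lack of overlap does not set these pairs apart.

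**Figure D4:**
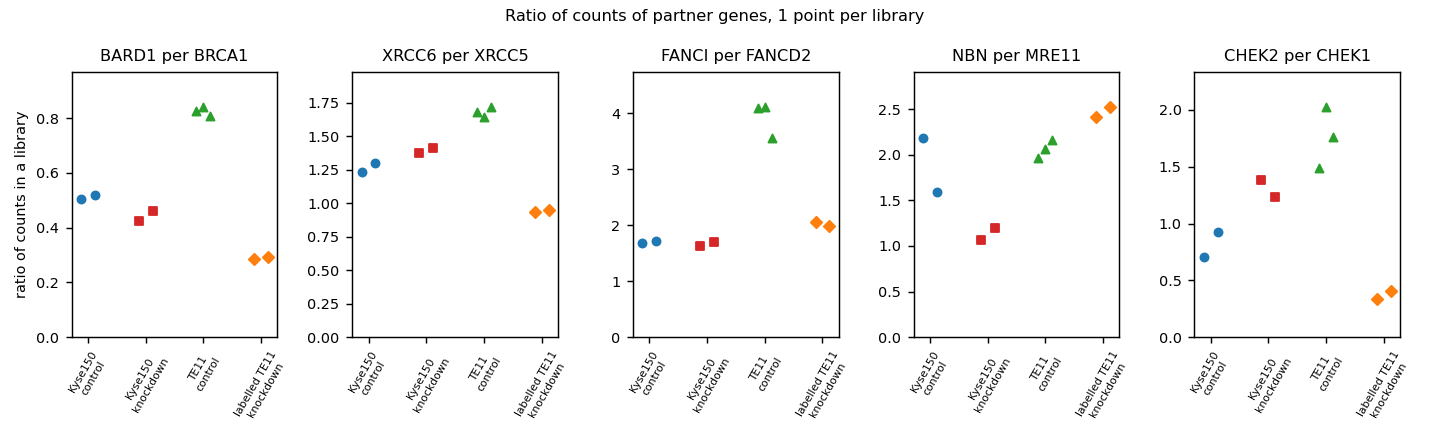
Ratio of the counts of 5 partner pairs in each library, 1 point per library and 1 panel per pair, with the y axis starting at 0. Groups are ordered as Kyse150 control, Kyse150 knockdown, TE11 control and labelled TE11 knockdown. BARD1 per BRCA1 lies at 0.287 and 0.291 in the libraries labelled TE11 knockdown, below the other 7 libraries.

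Per kilobase of exon, counted over all exons that GENCODE lists for a gene, the Ku genes and PRKDC led in all groups. XRCC6 was first in each, at 150 CPM per kb in Kyse150 controls, 121 in knockdowns, 234 in TE11 controls and 141 in the libraries labelled TE11 knockdown. PRKDC and XRCC5 took the next places, at 72.1 and 71.4 CPM per kb in Kyse150 controls, levels that do not differ beyond their spread, and at 46.4 and 84.0 in TE11 controls. The lowest levels were those of RAD51B and FANCM in Kyse150 controls, at 0.537 and 0.542 CPM per kb, and RAD51D in TE11 controls, at 0.824. These ranks depend on the listed exon bases, 11304 for RAD51D and 5313 for RAD54B. Before division RAD51D stood at a mean of 9.32 CPM in TE11 controls, above RAD54B at 4.7. BRCA2 was next to last in the Kyse150 knockdowns, at 0.745.

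The labelled TE11 knockdown libraries were also placed between the controls of both lines, gene by gene, on mean log2(CPM + 1) values scaled over all 9 libraries and without a test. For 19 of the 45 genes (42.2%) they lay nearer to the Kyse150 controls than to the TE11 controls, and for 65.3% of 15895 genes overall. RAD50, whose levels cannot be compared between the tables, was placed as well, and without it the share was 19 of 44 (43.2%). Those nearer to Kyse150 controls included ATM, CHEK1, CHEK2, MDC1, FANCC, FANCI, POLQ, XRCC6 and PMS2. Being nearer did not mean lying between the controls. Of these genes, ATM, CHEK1, FANCC and PMS2 lay above both sets of controls and CHEK2 below both, while MDC1, FANCI, POLQ and XRCC6 lay between them. ATM, for instance, was at a mean of 6.02, against 5.41 in Kyse150 controls and 4.77 in TE11 controls. The 6 genes of end resection and joint processing other than RAD50, and BRCA2, BRIP1, RIF1, LIG4 and XRCC4, lay nearer to the TE11 controls, several of them above both sets. BRCA2, for example, was at a mean of 5.99 on this joint log2 scale in the labelled TE11 knockdown libraries. Its means were 4.50 in the Kyse150 controls and 4.86 in the TE11 controls.

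Base composition moved with the Kyse150 response. Transcripts of the 45 genes had a median GC content of 41.5%, against 48.7% over all genes tested, and across all 13708 genes with a value the log2 fold change rose with GC content (Spearman rho 0.24; 0.46 across the 45 genes). The 24 repair genes under 42% GC had a median log2 fold change of -0.50 and the others -0.16, against -0.16 and 0.06 for all genes. In TE11 the Spearman rho with GC content was -0.03 across all 16278 genes with a value and -0.28 across the 45. The median there was 0.39 for repair genes under 42% GC and 0.10 for the others, against -0.11 and -0.08 for all genes. Replicates of 1 group differed with GC content as well, with a Spearman rho of 0.28 between the Kyse150 controls and -0.28 between the knockdowns. For the pairs of TE11 controls rho was -0.42, -0.32 and 0.17, and between the libraries labelled TE11 knockdown it was -0.02. An edgeR fit with GC-dependent offsets, chosen after seeing the data, called 23 lower and 3 higher in Kyse150, with a median of -0.27, where it called 25.8% of all genes lower and 25.2% higher. In TE11 it called 24 of the 45 higher and 11 lower, beside 39.9% and 40.1% of all genes. BRCA2 stayed at -1.06 (edgeR adjusted p = 1.57e-06), RIF1 at -0.77 (1.37e-09) and LIG4 at -0.82 (0.00486) in that fit. The Kyse150 falls of XRCC4 (log2 -0.42, edgeR adjusted p = 0.059) and POLQ (-0.31, 0.0784) and the TE11 falls of ATR (-0.10, 0.162) and RAD54L (-0.18, 0.0923) were lost in it. ATM and FANCM passed as higher in Kyse150 there (log2 0.23 and 0.67; edgeR adjusted p = 0.0485 and 0.0372), and MDC1 and FANCG as lower (-0.16 and -0.26; edgeR adjusted p = 0.00875 and 0.016). XRCC5 and RAD50 passed as higher in TE11, at 0.18 and 0.36 (edgeR adjusted p = 7.59e-05 and 0.0343).

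**Figure D5:**
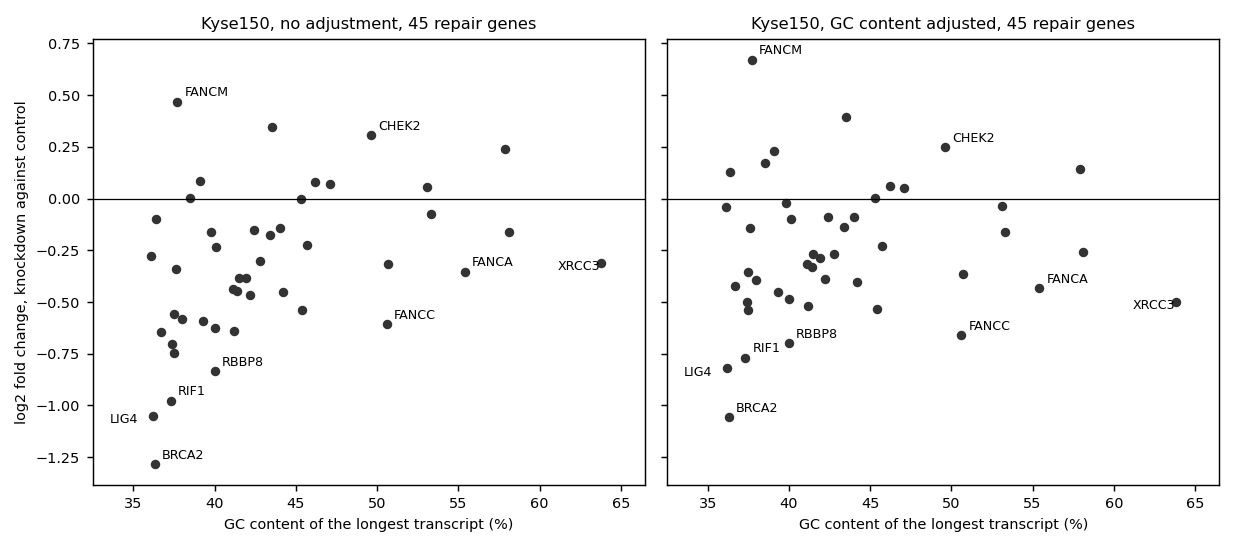
GC content of the longest transcript (x axis, %) against the Kyse150 log2 fold change of the 45 genes (y axis), without adjustment on the left and with GC-dependent offsets on the right. BRCA2, LIG4 and RIF1, all under 42% GC, are the 3 lowest points in both panels, at -1.28, -1.05 and -0.98 on the left and at -1.06, -0.82 and -0.77 on the right.

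Other genes of the same pathways, outside the list of 45, were counted next. Of 29 further genes of recombination and resection, 13 fell and 4 rose in Kyse150, and 14 were higher and 8 lower in TE11. GEN1, a resolvase of Holliday junctions, fell from 23.4 and 20.4 to 4.92 and 8.57 CPM in Kyse150, 0.306 of control (edgeR adjusted p = 1.60e-07), further than any of the 45, and was also lower in TE11 (0.714; edgeR adjusted p = 0.000148). FIGNL1, an ATPase of recombination, and TOP3A, the topoisomerase that works with BLM, fell to 0.577 and 0.769 of control in Kyse150 and were 1.64-fold and 2.78-fold higher in TE11. SPIDR, a scaffold that binds BLM, went the other way, 1.48-fold higher in Kyse150 and at 0.460 of control in TE11.

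Of 13 further Fanconi genes, 4 fell and 1 rose in Kyse150, and of 12 tested in TE11, 8 were higher and 1 lower. USP1, which removes ubiquitin from FANCD2, fell to 0.601 of control in Kyse150 and did not pass in TE11, at 149, 169 and 159 CPM against 159 and 162. RFWD3, a ubiquitin ligase of crosslink repair, fell to 0.707 of control in Kyse150 and was 1.58-fold higher in TE11, where MAD2L2, a shieldin and polymerase subunit, was the gene lower, at 0.450. Of 13 further end joining genes tested in each line, 2 fell and 2 rose in Kyse150, and 5 were higher and 4 lower in TE11. CYREN, a Ku-binding regulator, and DCLRE1C, the Artemis nuclease, fell to 0.644 and 0.729 of control in Kyse150 and were 1.83-fold and 2.86-fold higher in TE11. The polymerase POLM rose 1.60-fold in Kyse150.

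Of 19 further damage signalling genes, 7 fell and 0 rose in Kyse150, and 10 were higher and 7 lower in TE11. H2AX, the histone variant phosphorylated at breaks, fell from 456 and 485 to 218 and 207 CPM in Kyse150 (0.452 of control, log2 SE 0.06; edgeR adjusted p = 6.61e-15). In TE11 it rose from 73.2, 67.8 and 63.7 CPM to 381 and 376, 5.55-fold (log2 SE 0.07; edgeR adjusted p = 1.10e-32). CLSPN, the adaptor through which ATR activates CHEK1, moved as H2AX did, to 0.398 of control in Kyse150 and 3.08-fold in TE11. Of 6 further mismatch repair genes, 3 fell and 0 rose in Kyse150 (median -0.36), and 2 were higher and 4 lower in TE11 (median -0.36). MSH3 and MSH6 fell in Kyse150, to 0.759 and 0.722 of control. In TE11 MSH3 was 2.51-fold higher, and MLH3 was lower, at 58.1, 66.3 and 63.7 CPM against 9.89 and 8.01, or 0.143 of control. MLH3 was between 4.37 and 5.25 CPM in all Kyse150 libraries.

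Genes of the cell cycle moved alongside the repair genes. Of 37 replication fork genes, 29 fell and 0 rose in Kyse150 (median -0.43), and 26 were higher and 7 lower in TE11 (median 0.50). Of 20 mitotic genes, 15 fell and 0 rose in Kyse150 (median -0.44), and of 19 tested in TE11, 12 were higher and 6 lower (median 0.46). RRM2, which makes deoxynucleotides for replication, was at 0.493 of control in Kyse150, a fall, and 3.23-fold higher in TE11, and the helicase subunit MCM5 and the initiation factor MCM10 fell to 0.549 and 0.654 and were 1.73-fold and 6.34-fold higher. CDC20, an activator of the anaphase-promoting complex, and ANLN, which acts in cytokinesis, fell to 0.610 and 0.554 of control in Kyse150 and were 1.52-fold and 2.70-fold higher in TE11. CENPF, a kinetochore protein, was 2.68-fold higher in TE11 and did not pass in Kyse150, at 285 and 213 CPM against 113 and 179 (edgeR adjusted p = 0.232). The part of these differences in those of the repair genes was not tested.

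Of the p53 target genes, 10 of 24 tested rose and 8 fell in Kyse150, and 9 of 25 were higher and 13 lower in TE11. BBC3, which encodes the death-inducing protein PUMA, rose from 5.95 and 5.83 to 21.2 and 22.2 CPM in Kyse150 (3.67-fold) and was at 0.249 of control in TE11. BTG2, an antiproliferative gene, rose 3.49-fold in Kyse150 and was at 0.0958 of control in TE11. PLK2, a polo-like kinase, went the other way, to 0.584 of control in Kyse150 and 3.52-fold in TE11. These counts show no single direction for the p53 target list in either line.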

How the data were processed

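Gene counts of 9 polyadenylated RNA libraries of the cell lines Kyse150 and TE11 were used, and groups were taken from the sample titles. Each line has 1 table, and the counts deposited by the authors in it are raw whole numbers per gene. Alignment with HISAT2 2.1.0, counting with HTSeq 0.9.1, demultiplexing with bcl2fastq 2.19 and DESeq2 are named in the submitters' processing notes, as are GRCh37.p13 and GRCh38.p13, with no statement of which build belongs to which table. For the strand setting the sources used here give nothing. Summary rows of the counter were left out, among them fragments on no gene, 42.3% to 44.5% of a column.

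Each line was fitted alone in edgeR 4.0.16 (R 4.3.3) by a robust quasi-likelihood model with group as its term, after filterByExpr at a minimum count of 10 and a minimum total of 15, and TMM scaling. Values of p were adjusted by Benjamini-Hochberg across every gene tested, and 0.05 was the threshold. A contrast of both responses came from a joint model of the 9 libraries, restricted to identifiers common to the tables. Standard errors come from the fit. Coordinates, exon lengths and overlaps are those of GENCODE release 29 on GRCh38. Replicate pairs differed by more than counting noise (chi-square per degree of freedom 1.62 to 4.91), so none was treated as 1 library.

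The 45 genes and all gene lists were chosen with earlier results of these data known. Genes are named by a rule: in each group of the 45 and each line the 3 smallest p, all genes called in opposite directions, genes called alike with changes over 0.58 on the log2 scale in both lines, and from each other list those with the smallest p. Values of further members are given as examples. Some genes of the other lists are not reported here. Alternatives were DESeq2 1.42.0, RLE and total-count scaling, no filter and a stricter filter (1 CPM), a block for the replicate number, the joint model for each line, leaving out single libraries, a pseudocount of 0.1 for the placing between controls, and offsets by GC content in 20 bins, added after seeing the data.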

Additional observations from a re-analysis of the deposited data

Results flagged for a closer look

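The responses of 24 of the 27 named repair genes differed between the lines by a test of the difference itself (TE11 minus Kyse150 log2 fold change, edgeR, adjusted over all genes). The same fit called 66.9% of all genes. Genes were named partly for opposite calls or small p in these same libraries, so the count of 24 is no separate evidence of a difference. The TE11 response was the higher one for BRCA2 (2.45), LIG4 (2.35), NBN (1.78), FANCC (1.66), XRCC4 (1.65), CHEK1 (1.57), BRIP1 (1.51), RIF1 (1.51), ATM (1.19), MDC1 (1.09), RAD51C (1.07), RAD51D (0.99), FANCF (0.98), MRE11 (0.81), PMS2 (0.59), XRCC5 (0.58), ATR (0.46) and FANCL (0.45). It was the lower one for CHEK2 (-1.35), BARD1 (-0.86), POLQ (-0.81), UBE2T (-0.39), XRCC6 (-0.39) and FANCI (-0.33). These differences rest on the libraries labelled TE11 knockdown, in which KDM2A was not lower. With DESeq2 the call for UBE2T was lost (-0.40, adjusted p = 0.063). The call for FANCL was lost without Kyse150 knockdown replicate 1 (0.27, edgeR adjusted p = 0.209) or labelled TE11 knockdown replicate 1 (0.40, 0.058), and that for ATR without Kyse150 knockdown replicate 2 (0.35, 0.0693) or labelled TE11 knockdown replicate 2 (0.36, 0.0518). The call for UBE2T was lost without any 1 of 5 libraries: Kyse150 control replicate 1 (-0.32, edgeR adjusted p = 0.132), Kyse150 knockdown replicate 2 (-0.29, 0.186), TE11 control replicate 2 (-0.31, 0.0875), and labelled knockdown replicates 1 (-0.36, 0.0873) and 2 (-0.41, 0.0526).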

How the results depend on the processing

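The count of repair genes lower in Kyse150, 23, became 13 with DESeq2 and 13 to 25 with 1 library left out, and the count higher, 1, became 0 with DESeq2, 3 with GC offsets and 0 to 1 with 1 library left out. The TE11 counts of 22 higher and 13 lower, the between-line counts of 29 and 9, and the 19 genes placed nearer to Kyse150 controls stayed within 1.5 times under each alternative run. Of the 27 named repair genes, 11 kept direction and call in Kyse150 under all 12 alternatives, 10 lost a call, 3 gained one and 3 changed sign without passing; in TE11 and between the lines 22 and 22 kept both. The estimates that changed sign were near 0. MRE11 in Kyse150 went from 0.002 to -0.004 with DESeq2, RLE scaling and the stricter filter, -0.010 without a filter, -0.006 in the fit of all libraries, and ranged from -0.117 to 0.120 with 1 library left out, -0.081 among them. With 1 library left out RAD51D in Kyse150 ranged from -0.182 to 0.294 and PMS2 from -0.017 to 0.175. BLM between the lines ranged from -0.190 to 0.142, with 0.074 among them, and XRCC3 in TE11 stood at 0.112 with GC offsets.

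No pairing by replicate number was seen: deviations of same-numbered libraries correlated at -0.068 in Kyse150 and at 0.0006 and -0.0098 in TE11. With 2 libraries in a group the deviations mirror each other, so this check cannot decide whether the samples were paired. With the replicate number as a block, 23 were lower and 1 higher in Kyse150, 21 higher and 12 lower in TE11, and 29 and 9 between the lines. With 2 libraries in most groups, changes of low genes such as LIG4 and RAD51B are poorly bounded, and the cause of the lower DESeq2 counts was not tested.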
